A study of Mus musculus with 2 samples.

Results

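The 9 genes described here lie in 2 imprinted regions of mouse chromosome 7 and were chosen from 21950 genes for which accessibility was counted. Magel2, Ndn, Mkrn3, Snrpn, Peg12 and Ube3a belong to the region that corresponds to the human Prader-Willi and Angelman syndrome locus. Peg3, Usp29 and Zim1 belong to the Peg3 domain, which lies near the start of the chromosome. Members were picked by name because their accessibility had been seen to differ between nuclei and libraries of these data. Their levels by class and by library are therefore a description without a test.

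Chromatin accessibility was measured in single nuclei (scATAC-seq), in which the Tn5 transposase cuts open DNA and each fragment is tagged with a barcode for the nucleus it came from. The sham library was made from 4 brains of mice with sham surgery, and the stroke library from the ipsilateral hemispheres of 4 mice at 48 h after MCAO/R, in which the middle cerebral artery is blocked and then reopened. All animals were wild-type (WT) C57BL/6J young adult males, with no transgene, the olfactory bulb and cerebellum had been removed, and the brains of a condition were pooled before its library was made. Each condition was thus 1 library without a replicate, animals cannot be told apart, sham tissue held both hemispheres and stroke tissue 1, and all intervals given are exact 95% intervals that cover counting error only.

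Genomic imprinting marks the copies of a gene by the parent they came from, usually through DNA methylation of a control region laid down in the egg or sperm, so that 1 copy is used and the other is silent. Magel2, Ndn, Mkrn3, Snrpn, Peg12, Peg3 and Usp29 are used from the paternal copy, whereas Ube3a is used from the maternal copy in neurons and from both copies in most other cells, and Zim1 has been described as maternally used. In the brain these genes are known for roles in hypothalamic function, feeding, maternal behaviour and neuronal development. The chromatin data here carry no parental information, since the mice were of 1 inbred strain.

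Of the deposited fragments, 76959104 came from the sham and 96465679 from the stroke library. After keeping barcodes called as cells with over 20% of their fragments in peaks, 6817 of 6979 sham and 5054 of 8740 stroke nuclei remained, with a median of 10353 and 9898 fragments. The stroke library stood apart in the share of barcodes that this minimum removed. Between the libraries, 66 called barcodes were the same sequence, 42 of them among the kept nuclei. No doublet caller was run.

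Accessibility is given as fragments that overlap the gene body and 2 kb upstream of it, per 1000000 fragments of the nuclei counted (CPM), with GENCODE M21 gene models on mm10. Ndn (chr7:62346569-62350262), Magel2 (chr7:62377010-62381640), Mkrn3 (chr7:62417593-62420139) and Peg12 (chr7:62461871-62464510) are short genes side by side. Ube3a (chr7:59228750-59311536) and Snrpn (chr7:59982495-60140219) lie to their left and are long. The Peg3 domain holds Zim1 (chr7:6671269-6696450), Peg3 (chr7:6703892-6730431) and Usp29 (chr7:6730578-6967219). Peg3 and Usp29 start back to back on opposite strands, so their counting windows share fragments: 3408 in sham, which is 50.8% of those of Peg3 and 29.3% of those of Usp29, and 1813 in stroke, 48.1% and 26.6%. The Snrpn window contains that of its upstream partner Snurf, which held 37.0% of Snrpn fragments in sham and 35.6% in stroke.

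The DNA at which these genes open is shown for the members the results turn on. The first set is the 250 bases before the start of Magel2 (chr7:62376729-62376978, plus strand), Mkrn3 (chr7:62420154-62420403, minus), Ube3a (chr7:59228500-59228749, plus), Peg3 (chr7:6730420-6730669, minus) and Zim1 (chr7:6696433-6696682, minus), from RefSeq on GRCm38 (mm10), written 5′ to 3′ along the gene. Capitals mark matches to the letters GCCATNTT or AANATGGC, the core of the sites of YY1, a zinc finger protein that binds the unmethylated copy of several imprint control regions, and to TGCCGC or GCGGCA, the letters recognised when methylated by ZFP57, which maintains imprints.

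Magel2: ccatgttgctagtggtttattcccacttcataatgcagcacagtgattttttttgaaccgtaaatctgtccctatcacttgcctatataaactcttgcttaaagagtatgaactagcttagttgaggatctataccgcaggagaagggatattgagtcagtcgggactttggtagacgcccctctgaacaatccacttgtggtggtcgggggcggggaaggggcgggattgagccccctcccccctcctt
Mkrn3: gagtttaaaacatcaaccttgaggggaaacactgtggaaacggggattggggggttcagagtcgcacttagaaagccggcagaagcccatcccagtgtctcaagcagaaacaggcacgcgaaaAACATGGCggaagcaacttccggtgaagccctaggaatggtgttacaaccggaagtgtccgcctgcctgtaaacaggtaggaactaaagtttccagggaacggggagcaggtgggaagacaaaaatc
Ube3a: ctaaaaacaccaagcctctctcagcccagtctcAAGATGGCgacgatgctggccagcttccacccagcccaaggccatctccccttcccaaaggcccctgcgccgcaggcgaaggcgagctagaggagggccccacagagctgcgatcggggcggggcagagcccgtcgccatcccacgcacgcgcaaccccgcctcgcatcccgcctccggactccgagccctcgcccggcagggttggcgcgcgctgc
Peg3: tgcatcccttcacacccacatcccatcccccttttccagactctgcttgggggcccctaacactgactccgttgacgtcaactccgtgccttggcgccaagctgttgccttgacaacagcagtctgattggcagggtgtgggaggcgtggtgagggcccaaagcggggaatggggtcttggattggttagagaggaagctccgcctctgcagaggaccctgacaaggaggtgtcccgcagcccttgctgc
Zim1: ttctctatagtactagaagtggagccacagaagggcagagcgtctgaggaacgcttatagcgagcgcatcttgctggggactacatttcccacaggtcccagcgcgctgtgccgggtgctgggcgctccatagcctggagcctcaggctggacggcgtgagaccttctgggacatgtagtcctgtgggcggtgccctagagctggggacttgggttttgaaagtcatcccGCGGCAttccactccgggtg

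A YY1 match was present before Mkrn3 and Ube3a and a ZFP57 match before Zim1, and neither was found before the other 6 members, as against 3.93% and 8.75% of 32526 promoters of this length. The CpG ratio, observed over expected from base composition, was 0.471 before Magel2, 0.613 before Mkrn3, 0.351 before Peg3, 0.631 before Zim1 and 0.813 before Ube3a, beside a median of 0.378 over all promoters. The Peg3 and Usp29 stretches are largely the same DNA read on opposite strands.

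The densest kilobase of the Peg3 window was not at its start but centred 2028 bases downstream of it, at chr7:6727892-6728891. It lies in an intron of Peg3, the region known as the control region of this domain. It held 2872 sham fragments, 42.8% of the window, and 1553 stroke fragments, 41.2%. This kilobase contained 7 YY1 matches, whereas 0 of 9949 tiles of 1 kb across chr7:6000001-16000000 held as many. The tiles lie on a fixed grid that cuts through this kilobase, which was placed where fragments were densest, so the counts are not like for like. The highest count was 5, in 2 tiles, the first of which (chr7:6727001-6728000) overlaps this kilobase. The 300 bases around its densest cut sites, chr7:6728667-6728966 on the plus strand, show the repeated unit with 2 of these matches in capitals.

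Peg3 intron: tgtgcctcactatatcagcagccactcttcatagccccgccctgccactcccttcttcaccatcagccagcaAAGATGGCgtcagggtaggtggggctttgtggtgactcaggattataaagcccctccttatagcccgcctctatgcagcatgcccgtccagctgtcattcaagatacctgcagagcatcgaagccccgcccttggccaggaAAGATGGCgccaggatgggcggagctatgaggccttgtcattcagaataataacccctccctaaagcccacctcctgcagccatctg

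**Figure D1:**
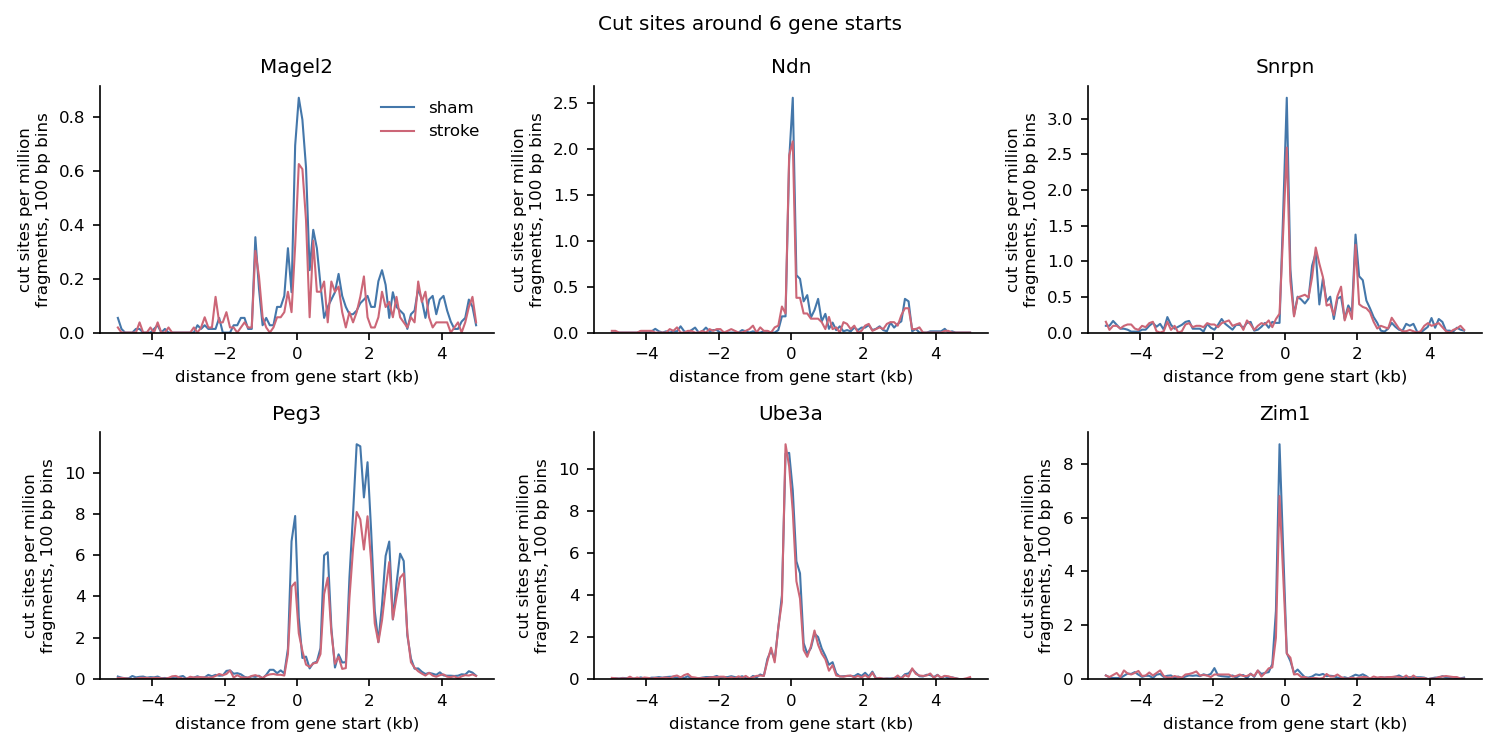
Cut sites around the annotated starts of Magel2, Ndn, Snrpn, Peg3, Ube3a and Zim1, per library. The x axis is the distance from the start in the direction of the gene and the y axis is cut sites per bin in CPM. Ndn, Ube3a and Zim1 peak at the start, whereas the tallest peak of Peg3 lies downstream, at the intron shown above.

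How far the window counts reflected the start differed between members. Of the annotated starts of a gene, the one with the most fragments in these nuclei was used here, for the sequences above and for the fragment pairs below. For Ndn it lay at chr7:62348277 and for Snrpn at chr7:60005199, both inside the gene as given above. Within 1 kb of the start lay 90.4% of sham and 86.6% of stroke fragments of Ndn, 79.3% and 87.2% of those of Mkrn3, 69.4% and 60.7% of those of Zim1 and 55.5% and 54.9% of those of Magel2. For Ube3a it was 47.9% and 49.6%, and for Peg12 68.2% and 68.9%. Smaller shares lay near the start for Snrpn, at 16.1% and 17.2%, for Usp29, at 12% and 10.9%, and for Peg3, at 23.2% and 22.2%, whose densest kilobase lies downstream. Per kilobase of window over both libraries, Peg3 was the most accessible member at 2.91 CPM per kb, followed by Ube3a at 0.739, Ndn at 0.732, Magel2 at 0.644, Usp29 at 0.612, Zim1 at 0.534, Peg12 at 0.342, Mkrn3 at 0.265 and Snrpn at 0.218.

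The first comparison was between the libraries over all kept nuclei. Mkrn3, which encodes a makorin ubiquitin ligase known as a brake on puberty, was the 1 member of 9 whose accessibility differed by more than 1.5-fold, and it was higher in stroke. This count rests on the minimum percent of fragments in peaks, which kept 6817 of 6979 sham but 5054 of 8740 stroke nuclei. Without it 4 members were past 1.5-fold, Mkrn3 at 1.89, Peg3 at 0.529, Magel2 at 0.629 and Usp29 at 0.665, while 18.5% of 20355 genes were lower, 17.4% higher and the median log2 ratio over all genes was -0.26. With the minimum, Mkrn3 had 58 fragments in sham and 94 in stroke, or 0.790 and 1.78 CPM, a ratio of 2.26 (1.61 to 3.19). Past that size, 8.92% of 20126 genes with at least 20 fragments in each library were higher in stroke and 0.293% were lower. The share of nuclei with a Mkrn3 fragment, after each nucleus was thinned to 3000 fragments, was 0.308% in sham and 0.668% in stroke, with intervals of 0.183% to 0.486% and 0.448% to 0.958% that overlap slightly (unthinned 0.734% and 1.72%). At that depth 967 sham and 711 stroke nuclei were too shallow and were left out.

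Peg3 and Usp29 were lower in stroke than in sham, within 1.5-fold among the kept nuclei. Peg3, a zinc finger gene known for growth and maternal behaviour, had 6713 and 3768 fragments, 91.4 CPM in sham and 71.4 in stroke, a ratio of 0.781 (0.751 to 0.813). Usp29, which encodes a ubiquitin protease, had 11627 and 6819 fragments, 158.3 and 129.2 CPM, a ratio of 0.816 (0.792 to 0.841). The share of thinned nuclei with a Peg3 fragment was 23.8% in sham and 19.7% in stroke, and with a Usp29 fragment 33.1% and 27.8%. Since these windows overlap, their parts were also counted alone: the shared region gave 46.4 and 34.35 CPM, Peg3 outside it 50.4 and 40.7, and Usp29 outside it 112.1 and 95.1. The parts share fragments that cross their border, 399 in sham and 193 in stroke for Peg3 and 13 and 12 for Usp29, so they sum to more than the window. Each of these parts was lower in the stroke library.

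Magel2 encodes a MAGE protein that works with the ubiquitin ligase Trim27 and the protease Usp7 on endosomes and is best known from the hypothalamus. It had 357 fragments in sham and 182 in stroke, 4.86 and 3.45 CPM, a ratio of 0.71 (0.590 to 0.851). Its neighbour Ndn, which encodes the MAGE protein necdin of postmitotic neurons, had 324 and 202 fragments, 4.41 and 3.83 CPM, a ratio of 0.868 (0.724 to 1.04) whose interval included 1. Peg12, a paternally used gene of the Frat family that acts in Wnt signalling, had 110 and 90 fragments, 1.5 and 1.71 CPM, a ratio of 1.14 (0.852 to 1.52).

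Ube3a and Snrpn were close to equal between libraries. Ube3a, the ubiquitin ligase lost in Angelman syndrome, had 4822 and 3090 fragments, 65.7 and 58.6 CPM, a ratio of 0.892 (0.852 to 0.933). Snrpn, which encodes a neuronal splicing protein, had 2642 and 1746 fragments, 36.0 and 33.1 CPM, a ratio of 0.920 (0.865 to 0.978). Zim1, a zinc finger gene beside Peg3, had 1116 and 717 fragments, 15.2 and 13.6 CPM, a ratio of 0.894 (0.813 to 0.983). On the log2 scale the median ratio over the 9 members was -0.17, and over all genes it was -0.04. Scaled to fragments in peaks instead, every gene moves by 0.23 on that scale, the median over all genes is 0.19, and the ratios of Ndn, Snrpn, Ube3a and Zim1 turn to 1.02, 1.08, 1.05 and 1.05. Since this scaling moves the members and the median alike, these 4 stay at the same distance below the median by construction. Whether they differ from it beyond counting error was not tested.

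How the nuclei were mixed differed between libraries, so the levels were also set side by side by class. Nuclei were gated on summed accessibility at marker genes outside these loci, and a gate kept its name with the ending -like where a second set of its markers, not used for gating, was on median more accessible than in all nuclei. Of 14 gates 13 kept their name, 3 excitatory, 5 GABAergic and 5 non-neuronal, with 3894 nuclei (32.8% of 11871). A subcortical excitatory gate of 62 nuclei went against its second markers, with a median fold of 0.65, and stayed unnamed. It is counted in the excitatory sums below. The other 7915 nuclei were left unassigned, and 1542 of the named nuclei lay near the threshold.

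The second markers were at a median of 3.88 times the level of all nuclei in the astrocyte-like gate, 2.38 in the other GABAergic-like, 2.36 in the striatal projection-like, 1.99 in the myeloid-like, 1.73 in the oligodendrocyte-like, 1.55 in the vascular-like, 1.36 in the oligodendrocyte precursor (OPC)-like, 1.35 in the other excitatory-like, 1.29 in the upper layer-like and 1.2 in the deep layer-like gate. The median was 2.18 in the Zic GABAergic-like, 1.84 in the Lhx6 interneuron-like and 1.53 in the Prox1 Adarb2 interneuron-like gate. Over both libraries, Etv1 in the deep layer-like gate (0.54) and Emcn in the vascular-like gate (0.98) were below all nuclei. Zic GABAergic-like second markers rested on 13 fragments for Six3, 11 for Lhx8, 10 for Isl1 and 4 for Lhx1. The lowest of them was at 0 in sham and 0.38 in stroke. By the whole profile described below, 135 of 142 upper layer-like and 133 of 138 deep layer-like nuclei were in the same class. It was 615 of 800 in the astrocyte-like, 260 of 608 in the OPC-like and 178 of 481 in the myeloid-like gate. In the vascular-like gate it was 115 of 298, and in the oligodendrocyte-like gate 127 of 423. Each profile was summed from the nuclei of its gate, so a gated nucleus was scored against a profile it helped to build. This overlap is therefore no independent check of the gates. In several gates the second markers differed between libraries: 1.28 in sham and 2.52 in stroke for the myeloid-like gate, 1.11 and 2.06 for the vascular-like, 1.32 and 2.21 for the oligodendrocyte-like, 1.63 and 2.92 for the Zic GABAergic-like and 1.91 and 1.02 for the Lhx6 interneuron-like gate. The last 2 gates are part of the GABAergic sums below, and the part of these differences in the ratios was not tested. As a comparison chosen after the values had been seen, the 10749 nuclei that could be placed by their whole accessibility profile, without genes of chromosome 7, were also used, and these values are called profile-based.

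Magel2, Ndn, Usp29 and Zim1 were more accessible in GABAergic-like than in excitatory nuclei, by 1.73- to 1.93-fold over both libraries. Magel2 had 51 fragments in 604 GABAergic-like nuclei and 39 in 742 excitatory nuclei, 6.78 and 3.86 CPM, a ratio of 1.76 (1.14 to 2.74). Ndn had 45 and 35 fragments, 5.98 and 3.46 CPM, a ratio of 1.73 (1.09 to 2.77). Usp29 had 1547 and 1169 fragments, 205.6 and 115.6 CPM, a ratio of 1.78 (1.65 to 1.92). Zim1 had 161 and 112 fragments, 21.4 and 11.1 CPM, a ratio of 1.93 (1.51 to 2.48). These 4 were past 1.5-fold among 7 members with at least 20 fragments in each group, as were 8.9% of 16806 genes, in whose order Zim1 ranked 429, Usp29 614, Magel2 658 and Ndn 719. With gates made from every other marker of each list, the Magel2 ratio was 0.962, so its direction was not the same in every setting. The cause of this change was not tested.

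The ratio of the other members was smaller or rested on few fragments. It was 1.22 (1.05 to 1.42) for Snrpn, and 0.742 with the promoter alone, 1.2 (1.07 to 1.35) for Ube3a and 1.18 (1.06 to 1.31) for Peg3. Peg12 had 14 fragments in GABAergic-like and 6 in excitatory nuclei, a ratio of 3.14 (1.13 to 9.96), and Mkrn3 had 9 and 1, a ratio of 12.1 (1.68 to 530.3).

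The parts of the overlapping Peg3 and Usp29 windows were also compared between neuron groups. The densest kilobase of Peg3 was at 36.0 CPM (31.9 to 40.6) in GABAergic-like and 35.3 (31.7 to 39.15) in excitatory nuclei, and Peg3 outside the shared region was at 48.0 and 44.1. The region shared by both windows was at 48.5 CPM (43.7 to 53.75) and 38.0 (34.3 to 42.0). Usp29 outside the shared region was at 157.4 CPM (148.5 to 166.6) in GABAergic-like and 77.7 (72.4 to 83.3) in excitatory nuclei. The members were picked on such differences, so these intervals are a description and no test. They do not overlap for the shared region and for Usp29 outside it. The latter was higher in GABAergic-like nuclei in each library, at 157.1 against 82.0 in sham and 157.9 against 68.9 in stroke.

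**Figure D2:**
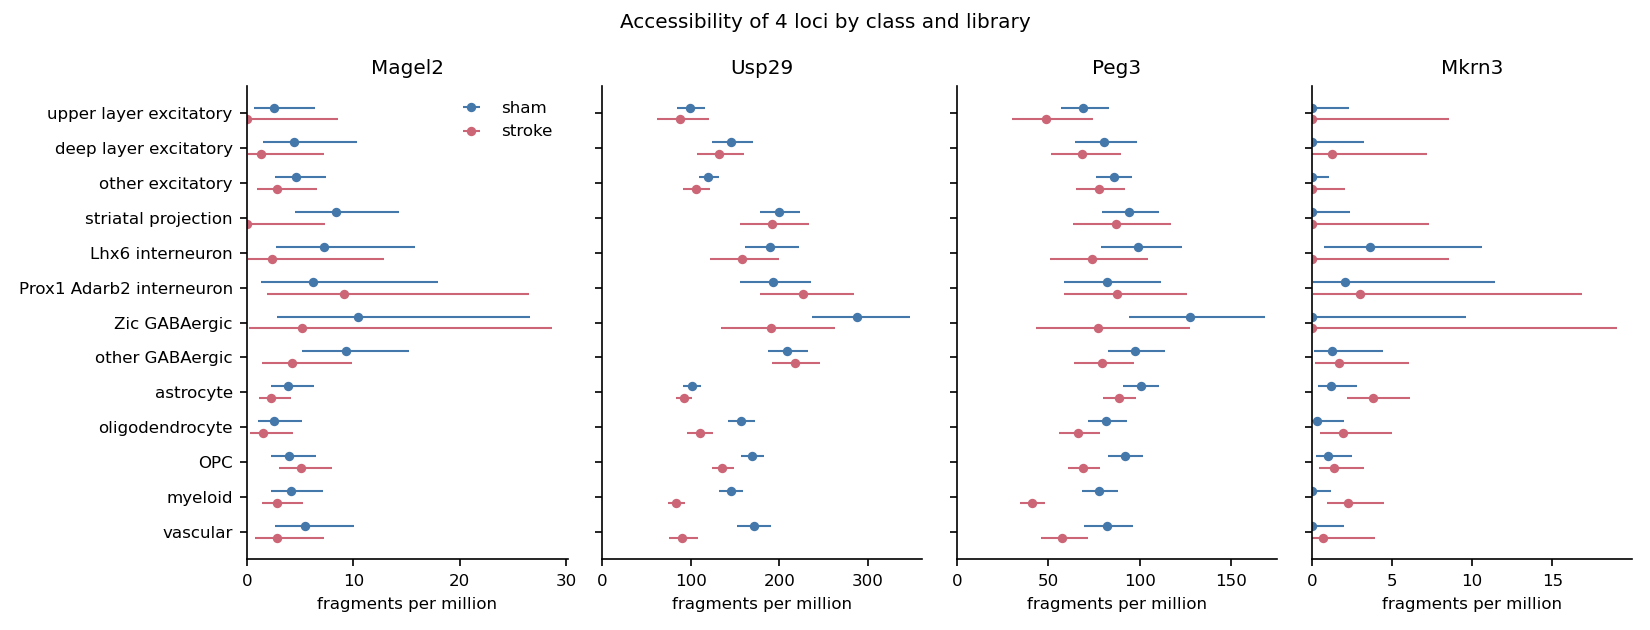
Accessibility of Magel2, Usp29, Peg3 and Mkrn3 in each marker-gated class, in CPM, with sham and stroke points and exact 95% Poisson intervals. Usp29 is higher in the GABAergic gates than in the excitatory gates in both libraries, whereas the intervals of Magel2 and Mkrn3 overlap across most gates.

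Across the 13 named gates, 8 of the 9 members had their highest level over both libraries in a GABAergic-like gate, as did 55.6% of 18996 genes with at least 100 fragments. Several of these gates are small, and their levels are the least precise. Magel2 was highest in the Zic GABAergic-like gate of 43 nuclei, at 8.64 CPM from 5 fragments, and lowest in the upper layer-like gate, at 1.97 from 4. Ndn had the same highest and lowest gates, at 12.1 and 2.95 CPM. Usp29 ranged from 96.5 CPM in the astrocyte-like gate to 255.7 in the Zic GABAergic-like gate, and Zim1 from 9.83 in the vascular-like to 31.1 in the Zic GABAergic-like gate.

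The remaining members had other lowest gates. Peg3 ranged from 58.4 CPM in the myeloid-like gate to 110.6 in the Zic GABAergic-like gate, with the astrocyte-like gate at 94.4. Snrpn ranged from 18 CPM in the astrocyte-like to 53.45 in the other GABAergic-like gate, and Ube3a from 50.4 in the astrocyte-like to 92.7 in the striatal projection-like gate. Mkrn3 was highest in the astrocyte-like gate, at 2.55 CPM from 22 fragments, and at 0 in the upper layer, other excitatory, striatal projection and Zic gates, the last of which allows up to 6.37 CPM. In none of the 9 orders did a gate and the next one down have intervals apart from each other.

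With profile-based classes, Magel2 was at 7.80 CPM in GABAergic and 2.32 in excitatory nuclei, a wider gap than by gate. Under these classes Peg3 and Peg12 were highest in the astrocyte class, Mkrn3 in the oligodendrocyte class, and Ndn, Usp29, Zim1 and Ube3a in the other GABAergic class. Some of these leads were small. Peg3 was at 105.3 CPM in astrocytes and 105.0 in other GABAergic nuclei, and Ndn at 6.45 in other GABAergic and 6.30 in Zic GABAergic nuclei. Mkrn3 in oligodendrocytes rested on 7 fragments, at 3.80 CPM (1.53 to 7.825), beside 3.67 from 48 fragments in astrocytes. The leading class changed for each of the 9 members under at least 1 alternative setting: with alternate markers Magel2 was highest in the deep layer-like gate, and with the promoter alone Snrpn was highest in the other excitatory-like and Ube3a in the astrocyte-like gate.

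Next, the stroke and sham libraries were compared within classes that held at least 50 nuclei in each. In astrocyte-like, excitatory and GABAergic-like nuclei, Snrpn in excitatory nuclei was the only member value past 1.5-fold with at least 20 fragments in each library. It had 280 fragments in sham and 77 in stroke, 41.1 and 23.3 CPM, a ratio of 0.566 (0.434 to 0.730). Past that size in excitatory nuclei 3.82% of 15352 genes were lower in stroke and 4.44% higher. Counted within 1 kb of its start alone, Snrpn gave a ratio of 1.14, and in profile-based excitatory nuclei the levels were 32.9 and 28.7 CPM (0.872, 0.786 to 0.966).

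Peg3 was lower in stroke in all 3 of these gated classes, within 1.5-fold. Scaled to fragments in peaks its ratio in excitatory nuclei was 1.01, or 0.01 on the log2 scale. The median over all genes moves by the same amount, from -0.06 to 0.18, so by construction Peg3 stays at the same distance below it. Peg3 was not tested against that median. Its levels were 100.5 and 88.7 CPM in astrocyte-like nuclei (0.883, 0.768 to 1.02), 81.7 and 69.8 in excitatory nuclei (0.854, 0.730 to 0.998) and 97.4 and 80.8 in GABAergic-like nuclei (0.830, 0.703 to 0.977). In the same classes 5.87% of 15496 and 3.27% of 14801 genes were past 1.5-fold lower in astrocyte-like and GABAergic-like nuclei, and 4.99% and 4.36% were higher. Usp29 in GABAergic-like nuclei was at 207.5 and 202.1 CPM (0.974, 0.875 to 1.08), nearly level. Whether any of these ratios differed between classes was not tested.

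**Figure D3:**
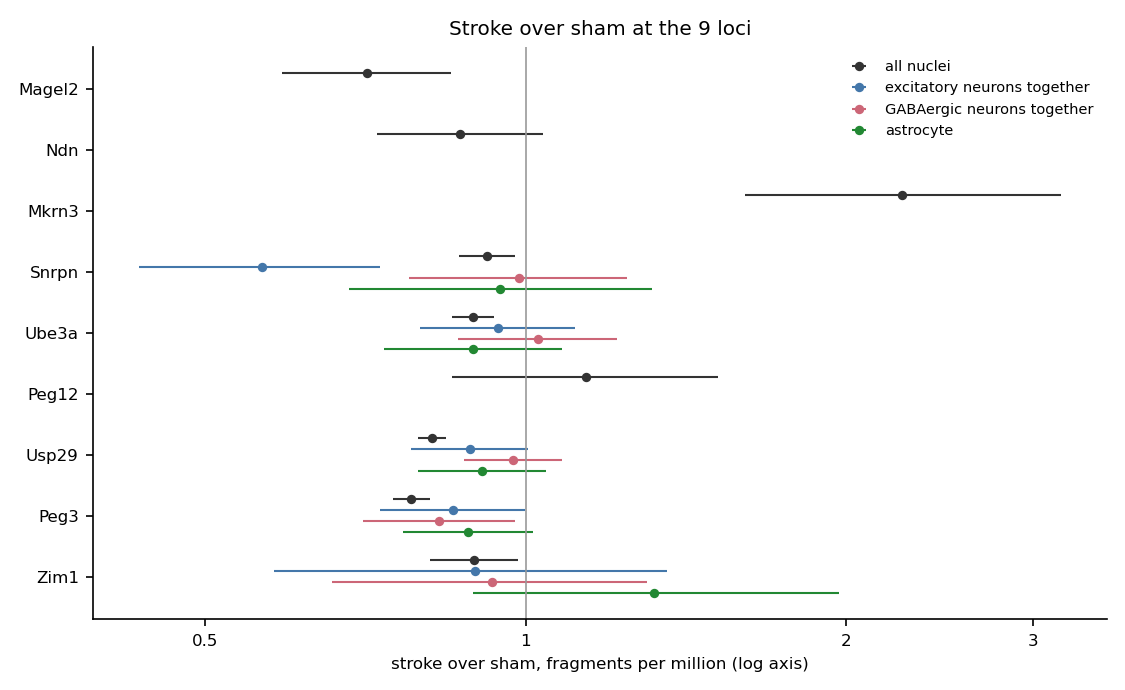
Stroke over sham ratio of accessibility for the 9 members in all nuclei, excitatory, GABAergic-like and astrocyte-like nuclei, on a log axis with a line at 1 and exact 95% intervals. A point is drawn only where each library had at least 20 fragments. Mkrn3 in all nuclei lies at 2.26, Snrpn in excitatory nuclei at 0.566, and all 4 points of Peg3 lie below 1.

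Values past 1.5-fold were also found in the myeloid-like and vascular-like gates, whose second markers differed between libraries, and not for the members with at least 20 fragments in each library in the oligodendrocyte-like gate, where Peg3 was at 0.811, Usp29 at 0.703 and Zim1 at 0.834. In the myeloid-like gate Peg3 was at 77.75 CPM in sham and 41.2 in stroke (0.530, 0.428 to 0.653), Usp29 at 145.3 and 83.5 (0.575, 0.495 to 0.667) and Zim1 at 17.6 and 11.1 (0.629, 0.407 to 0.966). These 3 were past 1.5-fold lower, as were 10.9% of 14989 genes, with 10.3% higher. In the vascular-like gate Usp29 was at 171.1 and 90.8 CPM (0.530, 0.429 to 0.653), past 1.5-fold lower like 8.65% of 12324 genes, with 8.37% higher. Of the myeloid-like nuclei, 42 of 236 in sham and 136 of 245 in stroke were also myeloid by profile, so the sham gate held fewer such nuclei, and the part of this in the ratios was not tested. In profile-based myeloid nuclei the ratio was 0.737 (0.519 to 1.07) for Peg3, 0.761 (0.604 to 0.967) for Usp29 and 1.02 (0.423 to 2.97) for Zim1. Usp29 remained past 1.5-fold lower in profile-based vascular nuclei, with 153 and 93 fragments (0.610, 0.466 to 0.794), like 11.3% of 8740 genes, with 6.81% higher. In profile-based oligodendrocytes it was also past that size, with 187 and 102 fragments (0.616, 0.479 to 0.788), like 10.8% of 8901 genes, with 7.98% higher.

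By profile Peg3 passed 1.5-fold in upper layer excitatory nuclei and in the sum of the non-neuronal classes. In upper layer nuclei it had 839 fragments in sham and 193 in stroke, 88.0 and 56.2 CPM (0.638, 0.543 to 0.747), past 1.5-fold lower like 3.63% of 15429 genes, with 4.42% higher. In the non-neuronal classes together it had 1133 and 1332, 100.1 and 66.4 CPM (0.664, 0.613 to 0.719), lower like 2.36% of 17895 genes, with 5% higher, although in each of these classes alone the ratio lay between 0.711 and 0.773. In all profile-based excitatory nuclei Peg3 was at 0.770 (0.721 to 0.823), in GABAergic nuclei at 0.926 (0.858 to 1.0) and in astrocytes at 0.733 (0.658 to 0.815). The 1 further member past that size with at least 20 fragments was Zim1 in Prox1 Adarb2 interneurons, higher in stroke with 31 and 21 fragments (1.65, 0.903 to 2.97), like 9.51% of 8741 genes, with 5.67% lower.

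Mkrn3 by gate rested on few fragments. In the 5 non-neuronal gates together it had 10 fragments in sham and 35 in stroke, 0.627 and 2.33 CPM, a ratio of 3.72 (1.80 to 8.43), with the sham count below the minimum of 20 for a call. Astrocyte-like nuclei held 5 and 17 of these (3.18, 1.13 to 11.02), and profile-based astrocytes 15 and 33 (1.61, 0.85 to 3.19), an interval that included 1. The other gates held few: myeloid-like nuclei 0 and 8, oligodendrocyte-like nuclei 1 and 4, OPC-like nuclei 4 and 5 and vascular-like nuclei 0 and 1. In GABAergic-like nuclei it had 6 and 3 fragments, and in excitatory nuclei 0 and 1. By profile the non-neuronal classes gave 19 and 67 fragments, a ratio of 1.99 (1.18 to 3.51), again with fewer than 20 in sham. Unassigned and unnamed nuclei held 42 and 55, or 0.906 and 1.71 CPM, a higher level in stroke as well.

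Magel2 in neurons had few fragments in stroke. GABAergic-like nuclei had 41 fragments in sham and 10 in stroke, 8.41 and 3.78 CPM, a ratio of 0.449 (0.201 to 0.912), below the minimum of 20 for a call, and with gates from every other marker it was 1.11. By profile it was 0.775 (0.581 to 1.02), from 196 and 70 fragments.

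If the sham level of each gate, unassigned nuclei included, is weighted by the mix of gates in the stroke library, the ratio that this mix of gates alone would give can be computed. It was close to 1 for every member: 1.02 for Mkrn3, 1.002 for Peg3, 0.983 for Magel2 and 0.978 for Snrpn. At a matched mix of gates the stroke over sham ratio was 2.21 for Mkrn3, 0.780 for Peg3, 0.823 for Usp29 and 0.722 for Magel2. The 7915 unassigned of 11871 nuclei count as 1 group here, so a change of mix among them is not covered. By profile the sham level of Mkrn3 was 0.145 CPM in excitatory and 1.68 in non-neuronal nuclei. The weighting by mix was not made with profile-based classes, and the part of the mix in the ratios was not tested.

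A measure that the choice of members did not use is how often 1 nucleus gave 2 overlapping fragments at a promoter. Tn5 cuts a stretch of DNA into fragments that do not overlap, so 2 fragments that share at least 20 bases with different ends come from 2 DNA copies of the locus, whether in 1 nucleus or in a pair of nuclei under 1 barcode. The number of nuclei with such a pair within 500 bases of the start was divided by the number expected from the depth and from the rate within each gate and library. X-linked promoters, present in 1 copy in these males, had a median ratio of 0.139 over 165 promoters (5% to 95%: 0.0449 to 0.298), and autosomal promoters 0.547 over 7911 (0.381 to 0.846). A ratio under 0.3 was found for 95.2% of the X-linked and 1.85% of the autosomal promoters, 146 in number.

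Peg3 and Usp29 lay in the range of X-linked promoters, whereas Ube3a and Zim1, over both libraries, lay in that of autosomal ones. At the Peg3 start 1 nucleus with a pair was seen where 23.9 were expected, a ratio of 0.0419 (0.00106 to 0.233), and at the Usp29 start 1 of 25.4, 0.0393 (0.000995 to 0.219), in windows that overlap and are not independent. The Peg3 intron element allowed a larger count, as a window chosen after the data had been seen: 18 of 193 expected, 0.0931 (0.0552 to 0.147), with 9 of 138 in sham and 9 of 54.8 in stroke. Ube3a had 62 of 137, 0.451 (0.346 to 0.578), and Zim1 13 of 23.9, 0.544 (0.29 to 0.931).

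Magel2, Ndn, Mkrn3, Snrpn and Peg12 were too sparse to be read alone, with 0.867, 3.26, 0.213, 4.01 and 0.153 pairs expected and none seen. Pooled after this was seen, they had 0 of 8.5 expected, which allows a ratio of up to 0.434 by the exact interval and 0.353 from a floor of 3 counts.

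Ube3a, used from the maternal copy in neurons, was also counted by class. Excitatory nuclei gave 2 pairs of 8.84 expected, 0.226 (0.0274 to 0.817), GABAergic-like nuclei 5 of 10.3, 0.484 (0.157 to 1.13), and non-neuronal gates 21 of 37.2, 0.564 (0.349 to 0.862). Neurons together gave 7 of 19.6, 0.358 (0.144 to 0.737). The neuron value over the non-neuronal one was 0.635 (0.227 to 1.54), so a difference was not detectable at this depth. Herc2, a neighbour not known as imprinted in brain, was low in excitatory nuclei too, with 3 of 11.6, 0.259 (0.0535 to 0.758), and gave 11 of 22.5, 0.488 (0.244 to 0.874), in neurons together. By library Ube3a was at 0.346 (0.234 to 0.495) in sham, 30 pairs of 86.6, and at 0.629 (0.43 to 0.888) in stroke, 32 of 50.9. The stroke value over the sham one was 1.82 (1.07 to 3.09), and for Herc2 it was 1.13 (0.75 to 1.67). The Ube3a interval excluded 1, but it takes the expected numbers as fixed and so leaves out their error. In the other contrasts computed for Ube3a and Herc2, between libraries and between classes, the interval included 1. The Peg3 intron element was also higher in stroke, at 0.164 (0.0751 to 0.312) against 0.0652 (0.0298 to 0.124) in sham. Zim1 went the other way, at 0.404 (0.0834 to 1.18) in stroke against 0.606 (0.291 to 1.11) in sham. Whether the ratio over all autosomal promoters shifted between libraries was not tested.

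**Figure D4:**
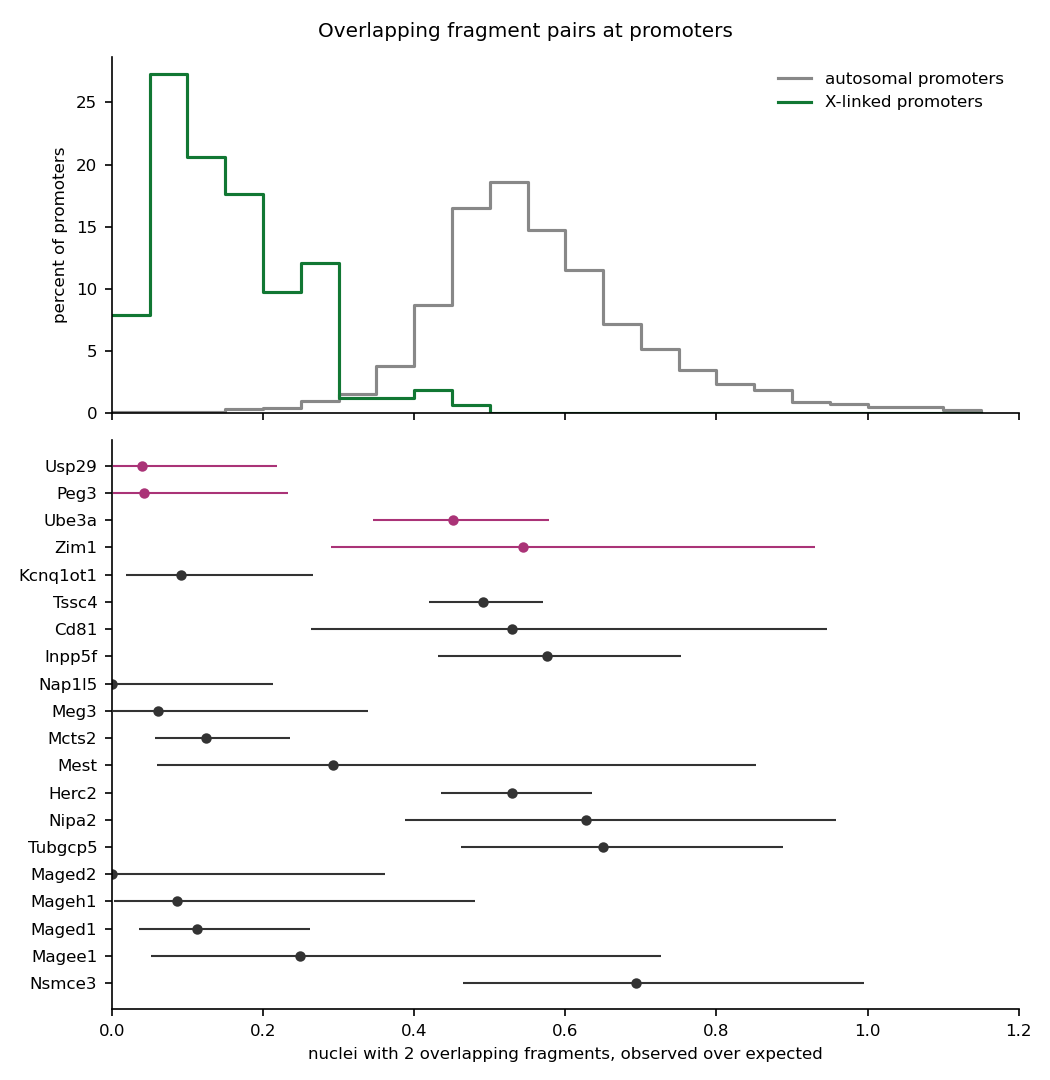
Top, percent of autosomal and of X-linked promoters by the ratio of nuclei with 2 overlapping fragments to the number expected. Bottom, the ratio with exact 95% Poisson intervals for the members (purple), other listed imprinted genes, neighbours on chromosome 7 and MAGE genes with at least 10 pairs expected, without the partners of Magel2. Peg3 and Usp29 sit at 0.0419 and 0.0393 with Meg3 and Nap1l5 nearby, whereas Ube3a, Zim1 and the neighbours Herc2, Nipa2 and Tubgcp5 sit between 0.451 and 0.65.

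Listed genes measured the same way were set beside the members. Of the imprinted genes on other chromosomes whose promoter lies in a methylated imprint region, 4 had enough pairs: Nap1l5 had 0 of 17.3 expected, Meg3 0.0608 (1 of 16.4), Mcts2 0.124 (9 of 72.4) and Mest 0.292 (3 of 10.3). On distal chromosome 7, Kcnq1ot1, the paternally used antisense RNA of its domain, was at 0.0912 (3 of 32.9), whereas Tssc4 was at 0.491, Cd81 at 0.529 and Inpp5f at 0.576. Neighbours of the Prader-Willi region not known as imprinted in brain were at 0.529 for Herc2, 0.627 for Nipa2 and 0.65 for Tubgcp5. Among relatives of Magel2, the X-linked MAGE genes Maged2, Mageh1, Maged1 and Magee1 were at 0, 0.0862, 0.112 and 0.249, and the autosomal Nsmce3 was at 0.693. Of the partners of the Magel2 protein, 6 had enough pairs, with a median of 0.567: the ubiquitin ligase Trim27 was at 0.693, the retromer subunits Vps26a, Vps26b and Vps29 at 0.578, 0.633 and 0.556, and Washc1 and Washc2 of the WASH complex at 0.43 and 0.532.

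In accessibility, none of the 55 listed genes that could be matched was past 1.5-fold between libraries over all nuclei, where 8.92% of all genes were higher and 0.293% lower. These lists held 6 imprinted neighbours of the members, 9 neighbours not known as imprinted, 13 distal imprinted genes of chromosome 7, 13 imprinted genes elsewhere, 6 other MAGE genes and 8 partners of the Magel2 protein. Their median log2 ratios lay between -0.32 and -0.07. Between neuron groups, 1 of 11 distal genes was past 1.5-fold higher in GABAergic-like nuclei, Inpp5f at 1.88, and 3 of 13 imprinted genes elsewhere, Sgce at 1.72, Nnat at 2.63 and Plagl1 at 1.52. Of the other lists 0 genes were, and over all genes it was 8.9%. None of the partners of Magel2 was among them, with ratios from 0.908 to 1.28.

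The genes whose levels were most like those of Magel2 over 26 profiles, the 13 named gates in each library, were Kcnk15 (r = 0.855), Pnoc (0.805), B4gat1 (0.781), Dnajb3 (0.776) and Mettl26 (0.772), of 18495 genes. For Peg3 they were Tnik (0.804), Phactr3 (0.745), Sesn3 (0.742), Abhd18 (0.724) and Nrxn2 (0.721). Profiles of 1 library share their library, and most Magel2 levels rest on under 20 fragments, so the order of these genes is a description of sparse counts. Between members, the correlation ranged from -0.26 for Mkrn3 and Snrpn to 0.69 for Peg3 and Usp29, which share fragments. It was 0.62 for Ube3a and Usp29, 0.57 for Usp29 and Zim1, for Magel2 and Zim1 and for Mkrn3 and Peg12, and 0.48 for Magel2 and Ndn.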

How the data were processed

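The authors aligned reads to mm10 with Cell Ranger ATAC 2.1.0 and deposited fragment lists and for every barcode its counts of read pairs and of fragments, not normalised. Fragment ends were already moved to the Tn5 cut sites. Cell labels of the authors were not used. Fragments were counted with Python 3.11.15, numpy 2.4.6, pandas 2.3.3 and scipy 1.17.1. Scripts were tested on simulated data. Ratios carry exact 95% conditional binomial intervals, with 1.5-fold as a rule of size and at least 20 fragments in each library. With 1 library per condition no test was made.

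The members and gene lists were chosen with earlier results of these data known. Several class assignments were tried, and member levels were seen under them: the marker gates (scores over 2 with a margin over 1), a refinement of the gates by expectation maximisation, iterated profiles, and profiles used in a single step. The gates, nearest to the selection rule, are reported. Refined and iterated classes drifted and were dropped. The naming threshold (second markers over 1-fold) replaced 1.3-fold after values had been seen. Named are the members, listed genes with 10 or more pairs expected or past 1.5-fold, and the 5 genes most like Magel2 and Peg3. The 4 listed genes past 1.5-fold between neuron groups were chosen after their values were seen. Of 56 listed genes, Peg3os was not analysed here.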

Additional observations from a re-analysis of the deposited data

How the results depend on the processing

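Most values kept their direction and size. For the 7 main results, 49 of 55 alternative values stayed within 1.5 times the reported one or within its interval. The number of members past 1.5-fold in all nuclei was 1, and 4 with no minimum percent of fragments in peaks. The number of member values past 1.5-fold in astrocyte-like, excitatory or GABAergic-like nuclei was 1, and it was 0 with the promoter alone, 0 when scaled to fragments in peaks, 0 with classes extended by profile, 4 with cut sites and 2 with alternate markers. For single members, 360 of 410 alternative values stayed within the counting interval. Of the 410, 41 lay on the other side of 1. Of these, 16 came from the 2 scalings that move all genes alike, which say nothing of a member relative to other genes. Under the other alternatives 20 were for ratios within 1.5-fold, among them Snrpn for GABAergic over excitatory at 0.742 with the promoter alone, and in GABAergic-like nuclei the stroke over sham ratios of Ndn at 1.36 with alternate markers and Mkrn3 at 1.38 with the promoter alone. The remaining 5 turned a ratio that was past 1.5-fold: Peg12 in excitatory nuclei was at 1.4 with no minimum percent in peaks, Snrpn in excitatory nuclei at 1.14 and Peg12 in GABAergic-like nuclei at 2.76 with the promoter alone, and Magel2 with alternate markers at 0.962 for GABAergic over excitatory and at 1.11 for stroke over sham in GABAergic-like nuclei. The cause of these changes was not tested. In the main setting Peg12 had 5 sham and 1 stroke fragments in excitatory nuclei and 11 and 3 in GABAergic-like nuclei. Magel2 had 41 and 10 in GABAergic-like nuclei. Each of these stroke over sham ratios was thus below the minimum of 20 fragments for a call. Over all settings the stroke over sham ratio in all nuclei ranged from 0.529 to 0.919 for Peg3, from 0.629 to 0.834 for Magel2, from 0.665 to 0.96 for Usp29 and from 1.89 to 2.65 for Mkrn3, and the pair ratio from 0.0398 to 0.101 for Peg3 and from 0.394 to 0.51 for Ube3a. Classes extended by profile, the densest kilobase and the naming threshold of 1.3-fold were added after seeing the data. Depth limits Magel2, Ndn, Mkrn3 and Peg12 most, with 152 to 539 fragments in all. No paired analysis was possible because a condition was a single library.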
